A study of Mus musculus with 12 samples.

Results

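Citalopram is a selective serotonin reuptake inhibitor, an antidepressant that blocks the serotonin transporter. Its effect on transcript levels was measured here in primary neuronal cultures prepared from embryonic brain of ICR (CD-1) mice, which are outbred. The drug was added on day in vitro 3 at 10 µM and stayed for 48 h, until day in vitro 5, and these cultures were compared with control cultures, each group with 2 Affymetrix whole-transcript arrays. The labels do not state a vehicle for the control. Nor do they tell whether the 2 arrays of a group came from separate cultures or litters, so a p-value here reflects the spread between these samples alone, which may be technical. The same series held 2 arrays each of cultures treated for the same time with amitriptyline (5 µM), imipramine (5 µM), mirtazapine (50 µM) or duloxetine (0.1 µM). The cells of all 12 arrays were grown in Neurobasal medium with a serum-free supplement.

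The comparison uses the 4 citalopram and control arrays and the 23521 of 41345 probe sets that carried exactly 1 gene symbol. They stand for 22180 genes, of which 17469 had a mean log2 value at or above 5.72, the 30th percentile of all probe sets, and were tested. All values are log2 values after RMA, a method that corrects background, brings the arrays to a common distribution and sums the probes of a probe set, so they carry no read depth. Because each probe set has its own sensitivity, the value of a gene is set only against values of the same gene. As a check of the labelled cell type, 32 of 32 pan-neuronal genes were above the filter. Above it were also 34 of 36 measured astrocyte markers and 27 of 31 microglia and macrophage markers. Since 17469 of 22180 genes pass this filter, passing it does not show that a transcript was present.

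In the integrated stress response, phosphorylation of the initiation factor eIF2α slows protein synthesis in general while the transcription factor ATF4 is translated more. With its partners, ATF4 induces genes for amino acid uptake, amino acid synthesis and transfer RNA charging. The transcription factor NRF2 answers oxidants and electrophiles by inducing glutathione synthesis, heme breakdown and the repair of oxidised proteins. Genes of mitosis are switched on late in the cell cycle and silenced in resting cells by protein complexes that bind CCAAT boxes and the cell cycle genes homology region, a short element near their start sites. Neurons do not divide, so in a brain culture such genes are read from progenitors and glia.

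Citalopram cultures had higher transcripts of the inducible prostaglandin synthase Ptgs2, of a few chemokine, heme and antioxidant genes such as Cxcl2, Hmox1 and Srxn1, and of integrated stress response genes throughout their list. Transcripts of mitosis genes and of many glial markers were lower. None of these differences passed the test singly. At an adjusted p under 0.05, 0 of 17469 genes were called (0%) in limma, with a lowest adjusted p of 0.0918. At an unadjusted p under 0.05 there were 776 genes, of which 266 were higher (1.52% of those tested) and 510 lower (2.92%). These shares are the background for every count of listed genes at that threshold. The median difference, citalopram minus control, was −0.005, and the 5th and 95th percentiles were −0.24 and 0.20. More than 1 log2 unit higher were 7 genes, and 0 were more than 1 unit lower. At thresholds of 0.5 the counts were 46 higher and 97 lower. With 2 arrays a group, the 95% interval of the median gene reached 0.28 to either side. The count of 0 became 3 (Ptgs2, Ier3 and Hmox1) with a trended and robust variance prior, 76 with array weights and 10 without control replicate 2.

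**Figure D1:**
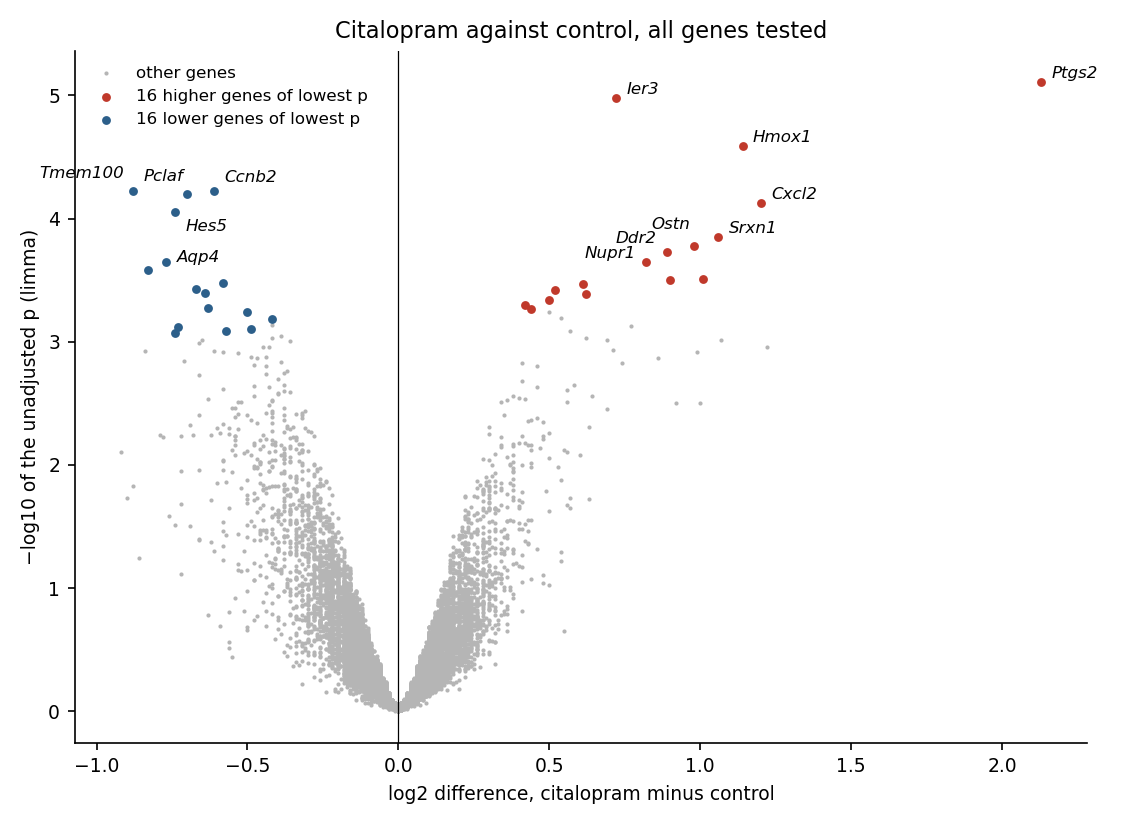
Each point is a gene: the horizontal axis gives its log2 difference, citalopram minus control (2 arrays each), and the vertical axis the −log10 of its unadjusted p in limma. Ptgs2 stands alone at 2.13 log2 units, and the 16 lower genes of lowest p, in blue, lie between −0.88 and −0.42.

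The citalopram arrays resembled each other closely, while the control arrays differed more. The residual SD over genes was 0.0928 in the citalopram group and 0.127 in the control group, against 0.246 for duloxetine and 0.206 for mirtazapine. The 2 citalopram arrays correlated at 0.9968 across genes and the 2 control arrays at 0.9938, and control replicate 2 correlated more closely with the citalopram arrays (0.9954 and 0.9953) than with control replicate 1. Control replicate 1 correlated with the citalopram arrays at 0.9917 and 0.9924. Duloxetine replicate 2 and mirtazapine replicate 2 stood apart on the first principal component (52.5% of the variance) at 32.6 and 36.4, where no other array exceeded 3.9. Both enter the spread that the test pools over all groups. Without both, 0 genes were called for citalopram against control (lowest adjusted p 0.0633), and the counts at an unadjusted p under 0.05 became 599 higher and 1132 lower.

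Among prostaglandin genes the largest difference was that of the inducible enzyme, with smaller ones in an export pump and in phospholipase genes. Ptgs2, which encodes the inducible cyclooxygenase that commits arachidonic acid to prostaglandins, read 9.84 and 9.99 on the citalopram arrays, against 7.45 and 8.11 on the control arrays. The means were 9.91 ± 0.11 in citalopram and 7.78 ± 0.47 in control cultures (SD, n = 2 each). Both citalopram arrays lay above both control arrays, by 2.13 ± 0.25 log2 units (SE) or 4.39-fold (adjusted p = 0.0918). Abcc4, a membrane pump that exports prostaglandins among other substrates, was at 8.42 and 8.5 with citalopram and at 7.16 and 7.74 in control (difference 1.01 ± 0.19). The secreted phospholipase gene Pla2g2e was at 8.23 and 8.43, against 7.6 and 7.84 (0.61 ± 0.11), and Pla2g4a, the cytosolic phospholipase that frees arachidonic acid, at 6.58 and 6.51, against 6.08 and 6.24 (0.38 ± 0.13). In all 3 the citalopram arrays lay above both control arrays, as they did in 17% of all genes tested. Of the 40 genes of the prostaglandin list 35 were tested, 19 with a positive and 15 with a negative difference (median 0.06). At an unadjusted p under 0.05 there were 5 higher and 0 lower genes, against 1.52% and 2.92% of all genes. The last of the 5 was the prostaglandin reductase gene Ptgr1 (0.22 ± 0.09), and 0 of the 35 passed over all genes.

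Chemokine genes were higher in a small group, and most other cytokine genes were near 0. Cxcl2, a neutrophil-attracting chemokine, read 8.82 and 8.9 with citalopram, against 7.62 and 7.71 in control, 2.29-fold higher (1.20 ± 0.18, adjusted p = 0.186). Its relative Cxcl1 read 7.75 and 7.86, against 6.66 and 7.15 (0.90 ± 0.17, adjusted p = 0.326). Lcn2, which binds iron-carrying siderophores, read 7.47 and 7.68, against 6.92 and 6.81 (0.71 ± 0.16). Groups did not overlap in any of these, with citalopram higher as in 17% of all genes tested. The interferon-inducible chemokine Cxcl10 read 8.3 and 8.42 with citalopram, against 7.3 and 7.93 in control (0.74 ± 0.17), and its difference was 0.43 without control replicate 1 and 1.06 without control replicate 2. Il18, an interleukin of the inflammasome pathway, was at 7.29 and 7.39 with citalopram and at 7.86 and 7.95 in control (−0.56 ± 0.21). Of 51 listed chemokine, cytokine and acute phase genes 43 were tested, with a median of 0.03. Above 0 were 26 and below it 17, against 47.4% and 50.8% of all genes. At an unadjusted p under 0.05 there were 5 higher and 3 lower, against 1.52% and 2.92% of all genes. Interferon-response genes had a median of 0.04 over 21 tested, with 1 higher (the class I histocompatibility gene H2-K1, 0.44 ± 0.17) and 1 lower (Ifit2, −0.28 ± 0.10) at that threshold.

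Heme, iron and NRF2 genes included some of the highest differences, though not as whole lists. Hmox1, the inducible heme oxygenase, read 10.38 and 10.39 with citalopram, against 9.02 and 9.48 in control (1.14 ± 0.15, 2.2-fold, adjusted p = 0.151). Srxn1, sulfiredoxin, which repairs overoxidised peroxiredoxins, read 10.28 and 10.3, against 8.98 and 9.48 (1.06 ± 0.18, 2.08-fold, adjusted p = 0.277). Slc7a11, the cystine transporter that feeds glutathione synthesis, read 11.41 and 11.39, against 9.78 and 10.58 (1.22 ± 0.27, 2.33-fold, adjusted p = 0.399). For all 3, control replicate 1 was the lowest array and the citalopram arrays lay within 0.02 of each other. Between citalopram and control, most of the spread therefore lay in the control group. The SE also takes in the spread of the other drug groups. A second, dimmer probe set of Slc7a11 differed by 0.70. Of 45 listed NRF2 genes 38 were tested, 21 above and 15 below 0, with a median of 0.037. Of these, 12 were higher and 1 lower at an unadjusted p under 0.05, against 1.52% and 2.92% of all genes. After adjustment 0 passed over all genes. Osgin1, an oxidative stress-induced growth inhibitor, was 0.40 ± 0.12 higher. Among 31 iron and heme genes tested, 4 were higher and 1 lower at that threshold: beside Hmox1, these were the mitochondrial iron importer gene Slc25a37 (7.94 and 7.94, against 7.31 and 7.54), the metalloreductase relative Steap1 (6.55 and 6.47, against 5.83 and 5.96) and the ferroxidase ceruloplasmin, Cp (0.28 ± 0.10). The lower one was Urod, an enzyme of heme synthesis (−0.22 ± 0.09).

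Genes of the integrated stress response were higher almost throughout the list. Of 48 listed genes 45 were tested, and 45 had a positive difference, against 47.4% of all genes tested. The median was 0.285, and the differences ran from 0.04 (Ndrg1) to 1.22 (Slc7a11). On 43 of the 45 both citalopram arrays lay above both control arrays, as in 17% of all genes tested, the exceptions being Nars and Cebpg. At an unadjusted p under 0.05 there were 26 higher and 0 lower genes, against 1.52% and 2.92% of all genes. After adjustment 0 passed over all genes. The list's mean lay 0.32 and 0.33 above the control mean on the citalopram arrays, with control replicates 1 and 2 at −0.09 and 0.09. The median ranged from 0.195, without control replicate 1, to 0.305, without control replicate 2.

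The members with the lowest p cover transcriptional regulators, a phosphatase subunit, metabolic enzymes and a growth factor. Nupr1, a small stress-induced transcriptional regulator, read 8.55 and 8.68 with citalopram, against 7.55 and 8.04 in control (0.82 ± 0.15, 1.77-fold). Atf3, a transcription factor induced downstream of ATF4, read 9.21 and 9.13, against 8.33 and 8.64 (0.69 ± 0.15). Ppp1r15a, which directs a phosphatase to eIF2α and so ends the response, read 8.57 and 8.57, against 7.95 and 8.1 (0.54 ± 0.11). Their adjusted p-values were between 0.303 and 0.395. Pck2, the mitochondrial phosphoenolpyruvate carboxykinase, read 9.88 and 9.97, against 9.33 and 9.51 (0.50 ± 0.10), and Vegfa, the vascular growth factor, 10.71 and 10.78, against 10.29 and 10.37 (0.42 ± 0.08). The groups were apart in each of these genes, with citalopram higher as in 17% of all genes tested. The pro-apoptotic regulator Ddit3 was at 9.64 and 9.8 with citalopram and at 9.63 and 9.53 in control (0.14 ± 0.14), and the pseudokinase Trib3 at 8.07 and 8.08, against 7.75 and 7.76 (0.32 ± 0.13). Asns, the asparagine synthetase, and Atf4 itself, both named after their values were seen, were 0.14 ± 0.09 and 0.28 ± 0.12 higher. The amino acid genes Cth (1.00 ± 0.26), for the enzyme that makes cysteine from cystathionine, and Slc1a5 (1.07 ± 0.23), a neutral amino acid transporter that is not on the list, were also named after their values were seen. Both read much lower on control replicate 1 (7.38 and 8.02) than on replicate 2 (8.39 and 8.84).

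The element through which ATF4 and its CEBP partners act, TGATGNAA, was searched on both strands of RefSeq promoters (GRCm38.p6, 250 bases before to 50 after a start site). It was present in 14 of 35 integrated stress response genes with a promoter entry (40.0%) and in 3.15% of 13530 tested genes with an entry. A match is only a run of letters and does not show that a factor binds there. The 120 bases before the start site of 4 members are shown because they carry the element, in capitals. They are read on the strand of the gene, so an element that lies on the other strand appears as its reverse complement.
Nupr1: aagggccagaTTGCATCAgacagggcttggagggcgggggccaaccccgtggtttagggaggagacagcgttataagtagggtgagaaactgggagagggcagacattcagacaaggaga
Pck2: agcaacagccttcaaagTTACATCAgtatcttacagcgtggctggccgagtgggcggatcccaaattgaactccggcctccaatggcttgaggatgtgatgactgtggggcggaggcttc
Atf3: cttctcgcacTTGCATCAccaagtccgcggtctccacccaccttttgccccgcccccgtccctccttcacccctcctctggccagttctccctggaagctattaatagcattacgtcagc
Slc7a11: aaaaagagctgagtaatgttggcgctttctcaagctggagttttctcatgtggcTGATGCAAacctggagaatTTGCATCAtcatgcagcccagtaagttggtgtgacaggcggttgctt
The stretches are chr7:126625471-126625590 on the minus strand for Nupr1, chr14:55540146-55540265 on the plus strand for Pck2, chr1:191183334-191183453 on the minus strand for Atf3 and chr3:50443614-50443733 on the minus strand for Slc7a11. Counting the base before the start site as −1, the element begins at −110 in Nupr1 and in Atf3, and at −103 in Pck2. In Slc7a11 it occurs on either strand, at −66 and at −47.

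Genes of protein folding and of cholesterol synthesis had small positive medians, and none passed. Ero1a, the oxidase that forms disulfide bonds in the endoplasmic reticulum, read 10.62 and 10.73 with citalopram, against 9.68 and 10.13 in control (0.77 ± 0.16), though its dimmer probe set differed by only 0.09. The luminal chaperone gene Hspa5 read 9.99 and 10.0, against 9.75 and 9.78 (0.23 ± 0.09), and Herpud1, a factor of degradation at that membrane, was 0.30 ± 0.08 higher. Of 44 chaperone and heat shock genes tested 31 were above 0 (median 0.083), against 47.4% of all genes. At an unadjusted p under 0.05 there were 7 higher and 0 lower, against 1.52% and 2.92% of all genes. Of 40 cholesterol and lipid synthesis genes 33 were above 0 (median 0.12), against the same 47.4%. At that threshold 5 were higher and 1 lower (Lpl), against the same shares of all genes. Among the higher were lanosterol synthase, Lss (0.38 ± 0.11), and the sterol sensor gene Insig1 (11.48 and 11.56, against 11.06 and 11.41). For Hmgcs1, an early enzyme of that pathway, the groups overlapped (12.46 and 12.5, against 12.32 and 12.47). The mean of the cholesterol list was 0.09 and 0.12 above the control mean on the citalopram arrays, while the control replicates lay at −0.11 and 0.11, so control replicate 2 was at the level of the citalopram arrays.

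Other genes among the 16 higher ones of lowest p belong to no single pathway. Ier3, an early response gene linked to survival signalling, read 9.15 and 9.19 with citalopram, against 8.43 and 8.46 in control (0.72 ± 0.09, 1.65-fold, adjusted p = 0.0918). Both arrays of either group agree here within 0.04, and the groups are far apart. Ostn, which encodes the secreted peptide osteocrin, read 6.76 and 7.0, against 5.62 and 6.18 (0.98 ± 0.17), and the collagen receptor gene Ddr2 read 8.4 and 8.45, against 7.3 and 7.77 (0.89 ± 0.15). The glucose transporter gene Slc2a1 read 9.73 and 9.75, against 9.0 and 9.25 (0.62 ± 0.12), but its dimmer probe set differed by −0.04. Piezo1, a mechanically gated cation channel, read 9.31 and 9.43, against 8.92 and 8.93 (0.44 ± 0.09). These complete the 16 genes in the plot of leading genes by array, where all 16 have both citalopram arrays above both control arrays. They were chosen by their p, so that count is a description.

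**Figure D2:**
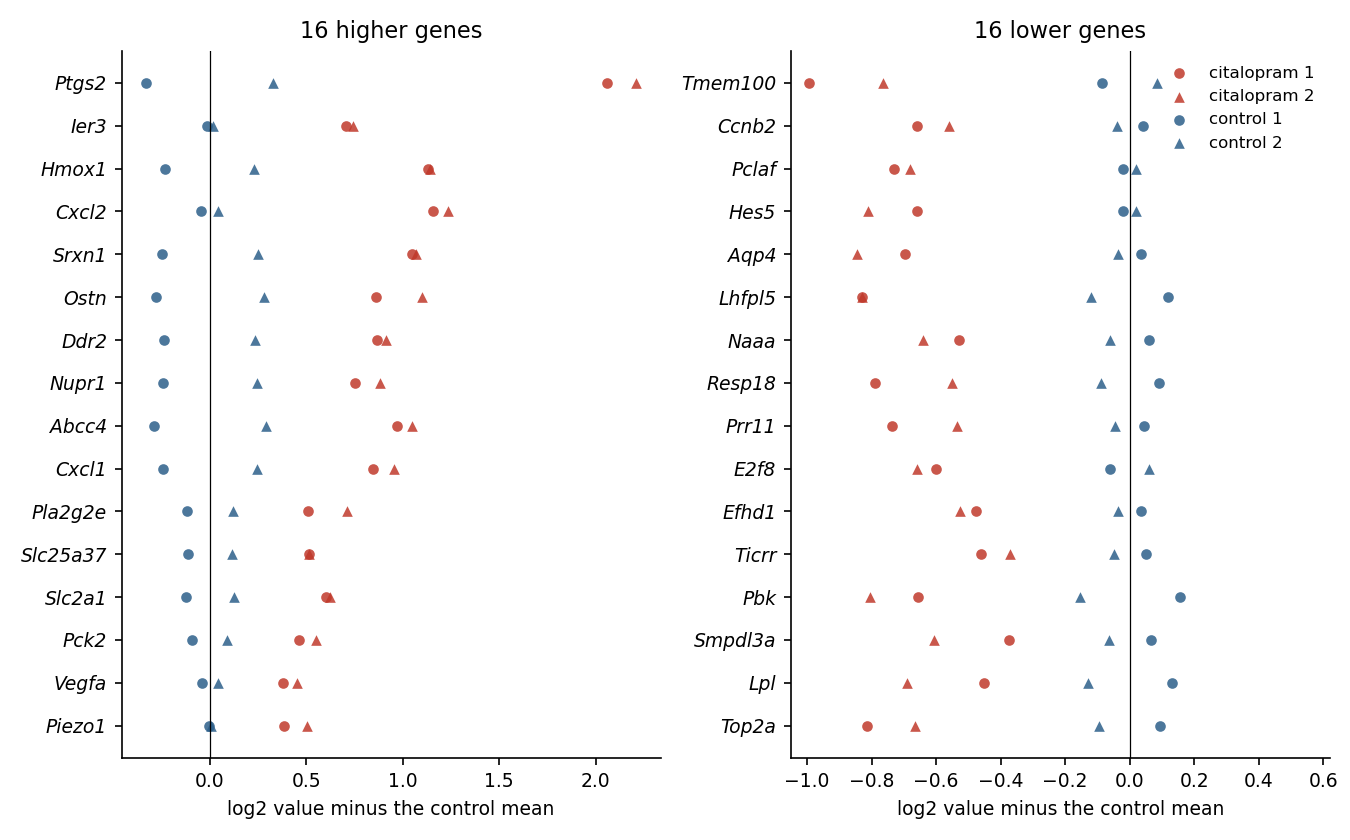
Log2 value minus the mean of the control arrays, for the 16 higher (left) and 16 lower (right) genes of lowest p. Red symbols are the citalopram arrays and blue the control arrays (circle replicate 1, triangle replicate 2): no gene shown has overlapping groups, and control replicate 1 lies below replicate 2 for the 16 higher genes.

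Mitosis genes were lower with citalopram nearly throughout their list. Ccnb2, encoding a mitotic cyclin, read 8.11 and 8.21 with citalopram, against 8.81 and 8.73 in control (−0.61 ± 0.09, adjusted p = 0.184), so control was 1.53-fold higher. Top2a, the topoisomerase that untangles chromosomes, read 7.54 and 7.69, against 8.45 and 8.26 (−0.74 ± 0.16). The mitotic kinase Cdk1 read 8.05 and 7.83, against 8.71 and 8.47 (−0.65 ± 0.14). In all 3 both citalopram arrays lay below both control arrays, as in 22.1% of all genes. The mitotic kinase gene Pbk was −0.73 ± 0.15 and the kinetochore gene Cenpi −0.36 ± 0.08, while Mki67, the proliferation marker, read 8.29 and 8.25, against 8.77 and 8.71 (−0.47 ± 0.14).

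Of 79 listed mitosis genes 75 were tested, 72 with a negative difference, against 50.8% of all genes. The median was −0.405 and the range −0.79 (the checkpoint kinase Bub1) to 0.09 (the cytokinesis kinase Cit). On 68 of the 75 both citalopram arrays lay below both control arrays, as in 22.1% of all genes. At an unadjusted p under 0.05 there were 47 lower and 0 higher genes, against 2.92% and 1.52% of all genes. After adjustment 0 passed over all genes. The list's mean lay at −0.39 and −0.41 on the citalopram arrays, with the control replicates at 0.02 and −0.02. Over the alternatives its median stayed between −0.42 and −0.372. On bulk arrays, fewer dividing cells and less of these transcripts per cell cannot be told apart.

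Promoters of the mitosis list held the letters of both known elements often. TTTGAA, the core of the cell cycle genes homology region, was in 42 of 63 mitosis promoters (66.7%) and in 14.9% of the 13530 promoters, and CCAAT in 45 of 63 (71.4%) and in 41.5%. Both were searched on both strands, and a run that holds both counts for each. Among DNA replication genes TTTGAA was in 8 of 55 promoters (14.5%) and CCAAT in 32 (58.2%). CCAAT was as frequent in other lists, with 74.2% of 31 cholesterol synthesis and 70.3% of 37 chaperone promoters, so it does not set the mitosis list apart. The 120 bases before the start of 3 mitosis genes are shown with CCAAT and TTTGAA in capitals, or ATTGG and TTCAAA where they lie on the other strand, because these genes hold several copies close to the start.
Ccnb2: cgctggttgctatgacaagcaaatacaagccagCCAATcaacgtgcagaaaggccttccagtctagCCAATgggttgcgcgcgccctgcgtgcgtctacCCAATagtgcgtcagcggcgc
Top2a: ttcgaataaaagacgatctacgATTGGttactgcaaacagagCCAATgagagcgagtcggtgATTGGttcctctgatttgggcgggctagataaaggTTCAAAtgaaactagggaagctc
Cdk1: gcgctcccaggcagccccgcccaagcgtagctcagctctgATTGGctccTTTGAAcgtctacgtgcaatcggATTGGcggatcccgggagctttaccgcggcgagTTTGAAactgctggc
They lie at chr9:70421555-70421674 (Ccnb2), chr11:99024190-99024309 (Top2a) and chr10:69352913-69353032 (Cdk1), all on the minus strand. The CCAAT boxes of Ccnb2 begin at −87, −54 and −21, and its TTTGAA copies, at −167 and at 5, lie outside the stretch shown. In Top2a and Cdk1 the TTTGAA element nearest to the start begins at −23 and at −15.

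DNA replication genes were lower by a smaller median. Pclaf, a factor bound to the replication clamp, read 6.31 and 6.36 with citalopram, against 7.02 and 7.06 in control (−0.70 ± 0.11, adjusted p = 0.184). The repressor gene E2f8 read 6.91 and 6.85, against 7.45 and 7.57 (−0.63 ± 0.13), and Mcm5, a subunit of the replicative helicase, 8.2 and 8.34, against 8.8 and 8.72 (−0.49 ± 0.11). The groups were apart in all 3. Of 72 listed genes 67 were tested, 60 below and 7 above 0 (median −0.205), against 50.8% of all genes below 0. On 51 both citalopram arrays lay below both control arrays, as in 22.1% of all genes. At an unadjusted p under 0.05 there were 18 lower and 0 higher, against 2.92% and 1.52% of all genes. Without the 2 arrays that stand apart 33 were lower, against 1132 of all 17469 genes tested. The maintenance factor Uhrf1, which guides DNA methylation at the fork, was at 7.61 and 7.47 with citalopram, against 8.0 and 7.94 in control (−0.43 ± 0.09). Of 22 D cyclins, which drive entry into the cycle, and inhibitors and brakes of the cycle, 10 were above and 12 below 0. There were 0 higher and 3 lower at an unadjusted p under 0.05: the inhibitor Cdkn2c (−0.50 ± 0.18), the phosphatase gene Cdkn3 (−0.40 ± 0.17) and the antiproliferative gene Btg2 (−0.36 ± 0.14). Among the 16 lower genes of lowest p were also the cell cycle genes Prr11 (6.76 and 6.96, against 7.54 and 7.45) and Ticrr, a replication initiator (6.4 and 6.49, against 6.91 and 6.81).

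Markers of astrocytes and of neural progenitors were lower alongside. Aqp4, the water channel of astrocyte endfeet, read 7.98 and 7.83 with citalopram, against 8.71 and 8.64 in control (−0.77 ± 0.14, adjusted p = 0.303). Gfap, the intermediate filament of astrocytes, read 8.49 and 8.59, against 8.89 and 8.85 (−0.33 ± 0.10). For Mlc1, a membrane protein of astrocyte junctions, the values were 9.5 and 9.33, against 9.76 and 9.82 (−0.38 ± 0.10). The groups were apart in each, with citalopram lower as in 22.1% of all genes tested. Of 37 listed astrocyte markers 34 were tested, 26 below and 6 above 0 (median −0.173), against 50.8% of all genes below 0. At an unadjusted p under 0.05 there were 12 lower and 0 higher, against 2.92% and 1.52% of all genes. The glutamate transporter gene Slc1a3 (0.07) and the tissue factor gene F3 (0.14) were above 0, and were named after their values were seen. The list's mean was −0.17 and −0.19 on the citalopram arrays, with control at −0.02 and 0.02. How far the number of glia, rather than their transcripts, bears on the mitosis list was not tested.

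Hes5, the Notch effector that keeps progenitors undifferentiated, read 9.08 and 8.93 with citalopram, against 9.72 and 9.76 in control (−0.74 ± 0.12, adjusted p = 0.193). Its second, dimmer probe set differed by −0.1, with overlapping groups (7.0 and 7.23, against 6.91 and 7.52). Lfng, which modifies Notch receptors, read 8.28 and 8.17, against 8.8 and 8.48 (−0.42 ± 0.12), and the ligand gene Dll3 was −0.36 ± 0.13. Among 37 Notch pathway genes the median was −0.05. At an unadjusted p under 0.05 there were 7 lower and 0 higher, against 2.92% and 1.52% of all genes. Of 30 radial glia and progenitor markers 27 were below 0 (median −0.145), against 50.8% of all genes. At that threshold 7 of them were lower, including the transcription factor gene Pax6 (7.99 and 7.96, against 8.37 and 8.23). Tnc, a matrix protein of progenitors, went the other way (0.32 ± 0.11), as did the filament gene Nes (0.36 ± 0.19). These 2 were named after their values were seen. Of 33 genes of the BMP and TGFβ pathways, 2 were lower and 0 higher at that threshold: Tmem100, a membrane protein induced by BMP signalling (5.81 and 6.04, against 6.72 and 6.89, −0.88 ± 0.13), and Grem1, a secreted BMP antagonist (−0.36 ± 0.09).

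Oligodendrocyte lineage markers were lower, while the control arrays differed between themselves. Olig1, a transcription factor of the lineage, read 10.1 and 10.09 with citalopram, against 10.52 and 10.89 in control (−0.61 ± 0.14), and Sox10 read 6.81 and 6.91, against 7.26 and 7.45 (−0.50 ± 0.17). C1ql1, a secreted protein of precursors, was −0.47 ± 0.11. Groups were apart in these genes, with citalopram lower as in 22.1% of all genes tested. Of 23 markers tested 19 were below 0 (median −0.14), against 50.8% of all genes. At an unadjusted p under 0.05 there were 5 lower and 0 higher, against 2.92% and 1.52% of all genes. The list's mean was −0.19 and −0.23 on the citalopram arrays, against −0.14 and 0.14 on control replicates 1 and 2, so control replicate 1 was near the citalopram arrays. The precursor receptor gene Pdgfra, named after its values were seen, read 8.58 and 8.77, against 8.88 and 9.9.

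The rest of the 16 lower genes of lowest p have other roles. Lpl, the lipase that frees fatty acids from lipoproteins, read 9.64 and 9.4 with citalopram, against 10.22 and 9.96 in control (−0.57 ± 0.12), and its dimmer probe set differed by −0.42. Naaa, a lysosomal amidase of lipid mediators, read 8.83 and 8.72, against 9.42 and 9.3 (−0.58 ± 0.11). Resp18, a protein of neuroendocrine secretory granules, read 6.94 and 7.18, against 7.82 and 7.64 (−0.67 ± 0.13). In these genes both citalopram arrays were the lower ones, as in 22.1% of all genes tested. Lhfpl5, known from the mechanotransduction complex of hair cells, was at 6.9 and 6.9, against 7.85 and 7.61 (−0.83 ± 0.15). Smpdl3a, a phosphodiesterase of nucleotides, and Efhd1, a calcium-binding mitochondrial protein, were −0.49 ± 0.10 and −0.50 ± 0.10. Their dimmer probe sets differed by −0.2 for Smpdl3a and by 0.15 for Efhd1. With duloxetine at 0.1 µM, Lhfpl5 read 7.13 and 6.97, Resp18 7.28 and 7.18, and Lpl 9.68 and 9.61. These were nearer to citalopram than to control, whereas the duloxetine arrays of Naaa, Smpdl3a and Efhd1 lay nearer to control.

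Markers of neurons as a class had a median near 0, and single transmitter genes differed by small amounts without passing. The 32 pan-neuronal genes had a median difference of 0.027 and lay between −0.16 and 0.16, and in limma 0 of them had an unadjusted p under 0.05. The cell adhesion gene L1cam read 11.3 and 11.44 with citalopram, against 11.16 and 11.26 in control (0.16 ± 0.09), and the nuclear marker Rbfox3 10.51 and 10.46, against 10.21 and 10.52 (0.12 ± 0.10). Of 30 markers of GABA neurons 21 were above 0 (median 0.095), against 47.4% of all genes. At that threshold 4 were higher and 1 lower, against 1.52% and 2.92% of all genes. Without the 2 arrays that stand apart 10 were higher and 2 lower, against 599 and 1132 of all 17469 genes tested. Gad1, which makes GABA, read 8.04 and 8.01, against 7.68 and 7.81 (0.28 ± 0.12), and Reln, reelin, 9.52 and 9.58, against 9.18 and 9.37 (0.28 ± 0.10). Calb2, calretinin, was the lower one (7.66 and 7.59, against 8.16 and 7.94). Excitatory neuron markers had a median of −0.035 over 41 genes, with 1 lower, the NMDA receptor subunit Grin3a (−0.38 ± 0.16). Among neuropeptide and secretory genes, Cck, cholecystokinin, read 10.53 and 10.44, against 10.97 and 10.88 (−0.44 ± 0.10), Nts, neurotensin, 8.55 and 8.66, against 9.54 and 9.12 (−0.72 ± 0.21), and the neurokinin receptor gene Tacr3 7.7 and 7.58, against 8.31 and 8.14 (−0.58 ± 0.13). The median of that list of 39 was −0.02. With duloxetine, Cck read 10.69 and 10.53, Nts 9.11 and 8.54, and Tacr3 7.83 and 7.62, nearer to citalopram than to control.

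**Figure D3:**
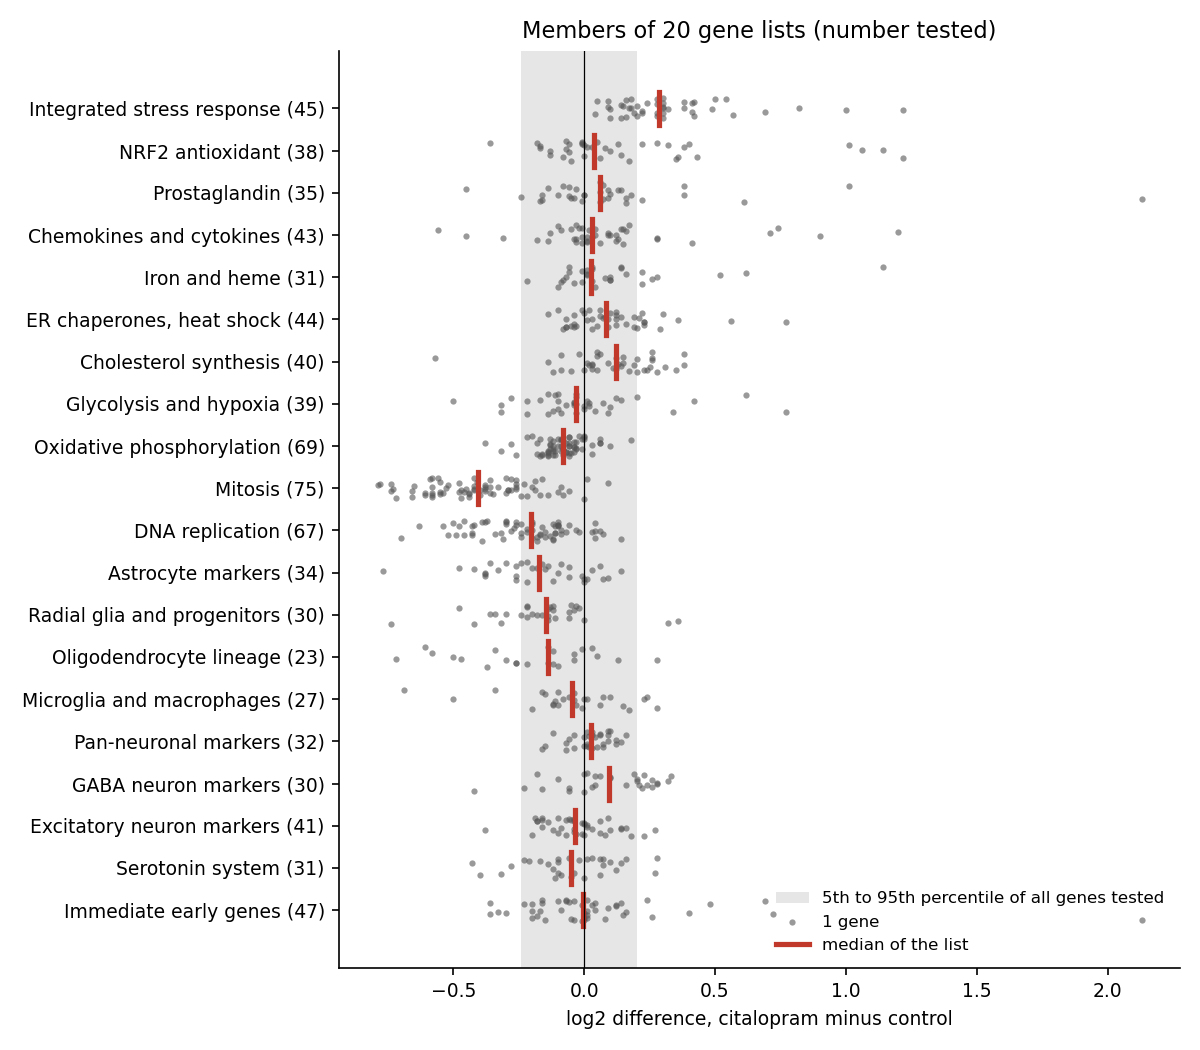
Each grey point is a gene of the list named on the left (number tested in brackets), at its log2 difference, citalopram minus control; red bars are list medians and the shaded band runs from −0.24 to 0.20, the 5th to 95th percentile of all genes. The band describes single genes and is no yardstick for a median. All 45 points of the integrated stress response lie right of 0, and 72 of 75 mitosis and 60 of 67 DNA replication points lie left of it.

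Markers of other cells present in such cultures gave smaller or uneven differences. Of 27 microglia and macrophage markers 10 were above and 17 below 0 (median −0.045), with 1 lower at an unadjusted p under 0.05. That gene, the myeloid surface protein Ly86, read 6.36 and 6.7 with citalopram, against 7.73 and 6.7 in control, and the macrophage receptor gene Adgre1 read 6.31 and 6.59, against 7.51 and 6.39. Both were high on control replicate 1 alone, where the mean of the list was 0.11 above the control mean. Endothelial markers had a median of 0.035 over 21 genes and fibroblast and mural cell markers 0.02 over 34, with 2 higher and 4 lower in the second list. The proteoglycan gene Dcn read 8.33 and 8.35, against 9.16 and 8.71 (−0.60 ± 0.20), and the matrix gene Fn1 10.46 and 10.53, against 10.09 and 10.17 (0.36 ± 0.09). Only 4 of the 14 genes of the erythroid list could be tested, with differences between −0.09 and 0.19. In the list of Cajal-Retzius cell markers, 19 genes had a median of −0.045, with 2 higher and 3 lower at an unadjusted p under 0.05. The higher were Reln and the calcium channel subunit gene Cacna2d2 (0.36 ± 0.16), and the lower Calb2, Ndst4 (−0.32 ± 0.11), which modifies heparan sulfate, and the transcription factor Emx2 (−0.30 ± 0.13).

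**Figure D4:**
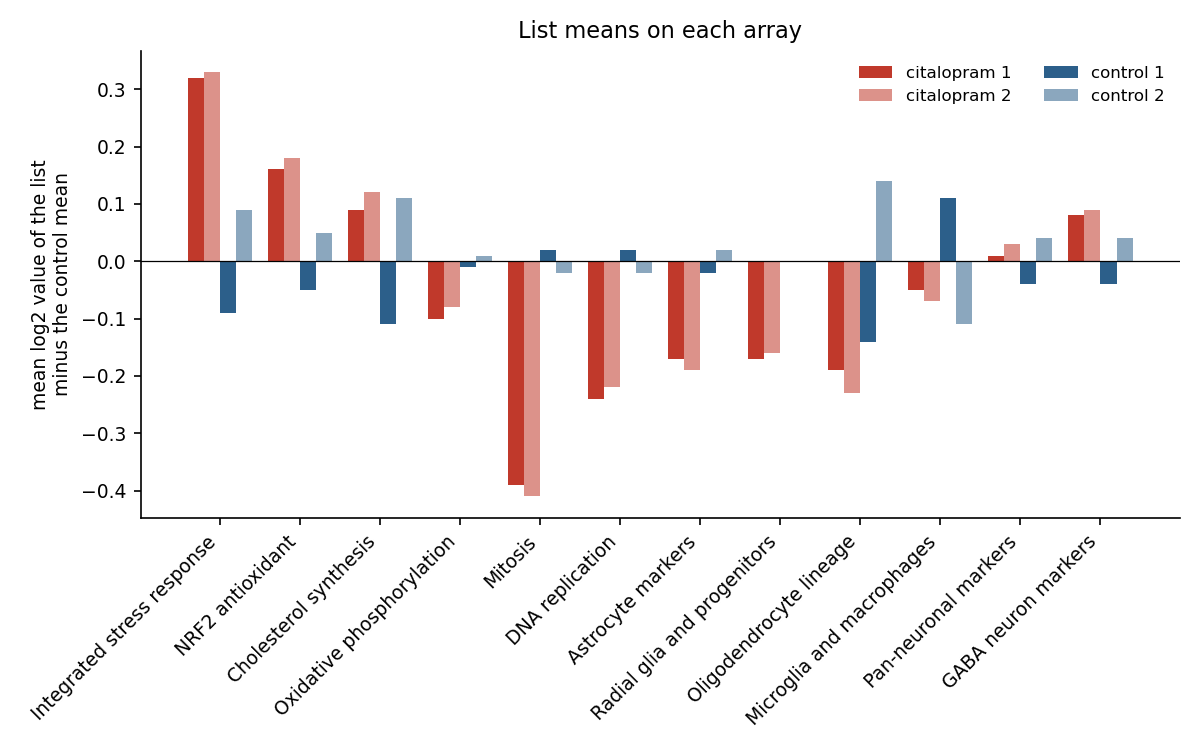
Bars give the mean log2 value of a list on each array minus the mean of the control arrays, for 12 lists. Red bars are citalopram replicates 1 and 2, blue bars control replicates 1 and 2: the citalopram bars lie beyond the control bars for the integrated stress response (0.32 and 0.33) and mitosis (−0.39 and −0.41), but control replicate 2 (0.11) reaches them for cholesterol synthesis.

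The serotonin system, which holds the drug's target, showed no gene that passed. Slc6a4, the serotonin transporter that citalopram blocks, was at 6.38 and 6.21 with citalopram and at 6.85 and 6.37 in control, so the groups overlapped (−0.32 ± 0.17, 95% interval −0.70 to 0.07). The receptor genes Htr1a (7.66 and 7.85, against 7.64 and 7.95) and Htr2a (9.01 and 9.11, against 8.71 and 9.18) also overlapped, and Htr2c read 6.22 and 6.27, against 6.57 and 6.47 (−0.28 ± 0.13). S100a10, an adaptor that carries serotonin receptors to the membrane, read 9.52 and 9.35, against 9.95 and 9.78 (−0.43 ± 0.11), and the monoamine oxidase gene Maob 6.69 and 6.61, against 7.18 and 6.92 (−0.40 ± 0.15). These 2 were the only ones of 31 serotonin genes tested with an unadjusted p under 0.05, against 776 of all 17469 genes tested. The median of the list was −0.05. With duloxetine, S100a10 read 9.56 and 9.49, nearer to citalopram than to control. Of 21 other monoamine, histamine and muscarinic genes 1 was lower at that threshold, the muscarinic receptor gene Chrm1 (−0.30 ± 0.11). Its dimmer probe set differed by only −0.1.

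Trophic and activity genes gave single differences beside list medians near 0. Over 50 growth factor genes the median was 0.022, with 3 higher and 3 lower at an unadjusted p under 0.05. Beside Vegfa, the higher ones included Igfbp3, which binds insulin-like growth factors (10.46 and 10.58, against 9.83 and 10.07), and the neuregulin receptor gene Erbb4 (0.26 ± 0.10). Igfbp5 was −0.45 ± 0.13, and Gfra1, the receptor of glial cell line-derived factor, −0.38 ± 0.09, with 0.42 on its dimmer probe set. Ntrk2, a neurotrophin receptor, read 11.37 and 11.46, against 11.32 and 11.46, and Vgf, a neurotrophin-inducible secreted protein, 8.07 and 8.17, against 8.41 and 8.03, with overlap in both. Over 47 immediate early genes the median was −0.005, and the higher ones, beside Ptgs2, Ier3 and Atf3, included the transcription factor Klf4 (7.47 and 7.81, against 7.12 and 7.21). At an unadjusted p under 0.05 there were 6 higher and 3 lower, the lower ones being Btg2, the matrix protein gene Ccn1 (−0.36 ± 0.14) and the transcription factor Jun (−0.30 ± 0.11), of which Ccn1 and Jun were named after their values were seen. The activity-induced genes Fos (7.71 and 7.58, against 8.45 and 7.5) and Npas4 (7.6 and 7.69, against 8.35 and 7.29) were high on control replicate 1 and low on replicate 2, around the citalopram values. Of 29 ERK feedback genes 1 was higher, Ier3.

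Chromatin genes, which the epigenetic question in the study's title concerns, had differences between −0.32 and 0.16, and DNA methylation genes between −0.43 and 0.64, without any that passed. The histone deacetylase gene Hdac5 read 10.08 and 10.05 with citalopram, against 10.08 and 9.9 in control (0.07 ± 0.10), and Hdac1 9.02 and 8.95, against 9.34 and 9.27 (−0.32 ± 0.13). Of 57 such genes (median 0.02) Hdac1 was the 1 with an unadjusted p under 0.05, against 776 of all 17469 genes tested. Dnmt1, the maintenance methyltransferase, read 9.94 and 10.06, against 10.11 and 10.02 (−0.06 ± 0.09), and Dnmt3a, a de novo methyltransferase, 8.59 and 8.78, against 8.53 and 8.57 (0.14 ± 0.10). Among 24 DNA methylation genes, 3 were lower and 1 higher at that threshold, against 2.92% and 1.52% of all genes. The higher was the cytidine deaminase gene Apobec1 (8.98 and 9.1, against 8.19 and 8.6). The lower ones were Uhrf1, Gadd45g (−0.34 ± 0.12), linked to demethylation, and Ahcy (−0.38 ± 0.16), which clears a product of methylation.

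Energy metabolism genes had small negative medians, and none passed. Of 69 oxidative phosphorylation genes 60 were below and 9 above 0 (median −0.08), against 50.8% and 47.4% of all genes. At an unadjusted p under 0.05 there were 0. The extremes were Atp5e at −0.38 (−0.14 on its dimmer probe set) and Atp5g1 at 0.18. The complex I gene Ndufs3 read 7.89 and 7.93 with citalopram, against 8.23 and 8.02 in control (−0.22 ± 0.10). Over 39 glycolysis and hypoxia genes the median was −0.03, with 4 higher (Slc2a1, Vegfa, Ero1a and the regulatory kinase Pfkfb3, 0.34 ± 0.09) and 5 lower, among them the glycolytic enzyme Tpi1 (10.8 and 10.88, against 11.14 and 11.18). Lysosome and autophagy genes had a median of 0.01 over 68, the autophagy receptor Sqstm1 reading 11.78 and 11.78, against 11.55 and 11.57 (0.22 ± 0.08). Among 28 glucocorticoid-responsive genes the median was 0.05, and Pdk4, a kinase that restrains pyruvate oxidation, read 6.64 and 6.59, against 7.55 and 7.1 (−0.71 ± 0.16). Survival genes of the BCL2 and caspase families had a median of −0.03 over 29, with Casp6 (−0.54 ± 0.14) and the mitotic survivin gene Birc5 (−0.48 ± 0.12) lower. Of 48 synaptic vesicle genes (median 0.05) 1 was higher at that threshold, the calcium channel gene Cacna1b (0.21 ± 0.08), and 0 were lower. Of 57 axon guidance genes (median 0.015) 2 were higher and 5 lower, against 1.52% and 2.92% of all genes. Without the 2 arrays that stand apart 9 were lower, against 1132 of all 17469 genes tested. The semaphorin gene Sema5b was at −0.36 ± 0.11 and the ephrin receptor gene Epha8 at 0.26 ± 0.11.

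Set against duloxetine, given at 0.1 µM, citalopram cultures had higher Ptgs2 and Ier3. Ptgs2 read 9.84 and 9.99 with citalopram and 7.5 and 7.16 with duloxetine, a difference of 2.58 ± 0.25 (SE) or 6.0-fold (adjusted p = 0.0141). Ier3 read 9.15 and 9.19 with citalopram, against 8.34 and 8.21 with duloxetine (0.90 ± 0.09, 1.86-fold, adjusted p = 0.0141). These were the 2 genes called of 17469 (0.0114%), both higher with citalopram, and 1177 had an unadjusted p under 0.05. Next came the chromatin reader gene Trim66 (0.74 ± 0.09), Piezo1 (0.66 ± 0.09) and Hmox1 (1.15 ± 0.15), each with an adjusted p of 0.084 and no overlap. On the other side were Pclaf (−0.70), the proteoglycan gene Bgn (−0.70), Ccnb2 (−0.51), Olig1 (−0.75) and the calcium sensor gene Kcnip3 (−0.59), which did not pass. Against control Bgn was −0.48, and its dimmer probe set differed there by only −0.04. The median difference was 0.325 over the integrated stress response genes, −0.22 over the mitosis genes and −0.045 over the DNA replication genes. Against control, the medians of mitosis and DNA replication were −0.405 and −0.205. The doses differ, so drug and dose cannot be told apart, and the citalopram arrays are those of the comparison with control. The count of 2 became 0 with array weights, with only the arrays of these groups, without both arrays that stand apart, or without either citalopram array, either amitriptyline array or duloxetine replicate 2. It became 4 without either control array, 7 with a trended and robust prior, and 442 without duloxetine replicate 1.

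Against the mean of the tricyclics amitriptyline and imipramine, which share a fused ring system that citalopram lacks, 0 of 17469 genes were called (0%), and 213 had an unadjusted p under 0.05. The 95% interval of the median gene reached 0.24 to either side, and a missed threshold does not show that the drugs act alike. The doses, 10 µM citalopram and 5 µM of either tricyclic, differ. Ptgs2 read 9.84 and 9.99 with citalopram, 9.9 and 9.8 with amitriptyline and 10.36 and 9.94 with imipramine, a difference of −0.09 (95% interval −0.57 to 0.40). Ostn read 6.76 and 7.0 with citalopram, 7.21 and 7.24 with amitriptyline and 7.45 and 7.42 with imipramine (−0.45, −0.77 to −0.13). Steap1 read 6.55 and 6.47 with citalopram, 7.05 and 6.75 with amitriptyline and 6.96 and 6.82 with imipramine (−0.38, −0.64 to −0.13). In these 2 genes both citalopram arrays were below all 4 tricyclic arrays, without passing. Gfap went the other way, also without passing. It read 8.49 and 8.59 with citalopram, 8.06 and 8.26 with amitriptyline and 8.35 and 8.37 with imipramine (0.28, 0.09 to 0.47). The genes of lowest p were Cox8b, a muscle-type subunit of cytochrome oxidase (6.2 and 6.24, against 5.73 and 5.91 with amitriptyline and 5.9 and 5.84 with imipramine), and the odorant receptor gene Olfr509 (5.66 and 5.63, against 6.1 and 6.04 with amitriptyline and 5.84 and 5.92 with imipramine), both near the filter. The list medians of this difference were 0.04 for the integrated stress response, 0.058 for mitosis and 0.106 for astrocyte markers, against 0.01 over all genes tested.

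Nupr1 read 8.55 and 8.68 with citalopram, 8.78 and 8.72 with amitriptyline, 8.84 and 8.75 with imipramine, 8.68 and 8.49 with mirtazapine, 7.92 and 7.88 with duloxetine, and 7.55 and 8.04 in control. Ccnb2 read 8.11 and 8.21 with citalopram, between 8.16 and 8.34 on the arrays of amitriptyline, imipramine and mirtazapine, 8.68 and 8.66 with duloxetine, and 8.81 and 8.73 in control. Aqp4 read 7.98 and 7.83 with citalopram, the highest of the 4 drugs at 5 µM or more, against 8.71 and 8.35 with duloxetine and 8.71 and 8.64 in control. The genes were chosen on the citalopram and control arrays, so their order in those groups is a description.

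**Figure D5:**
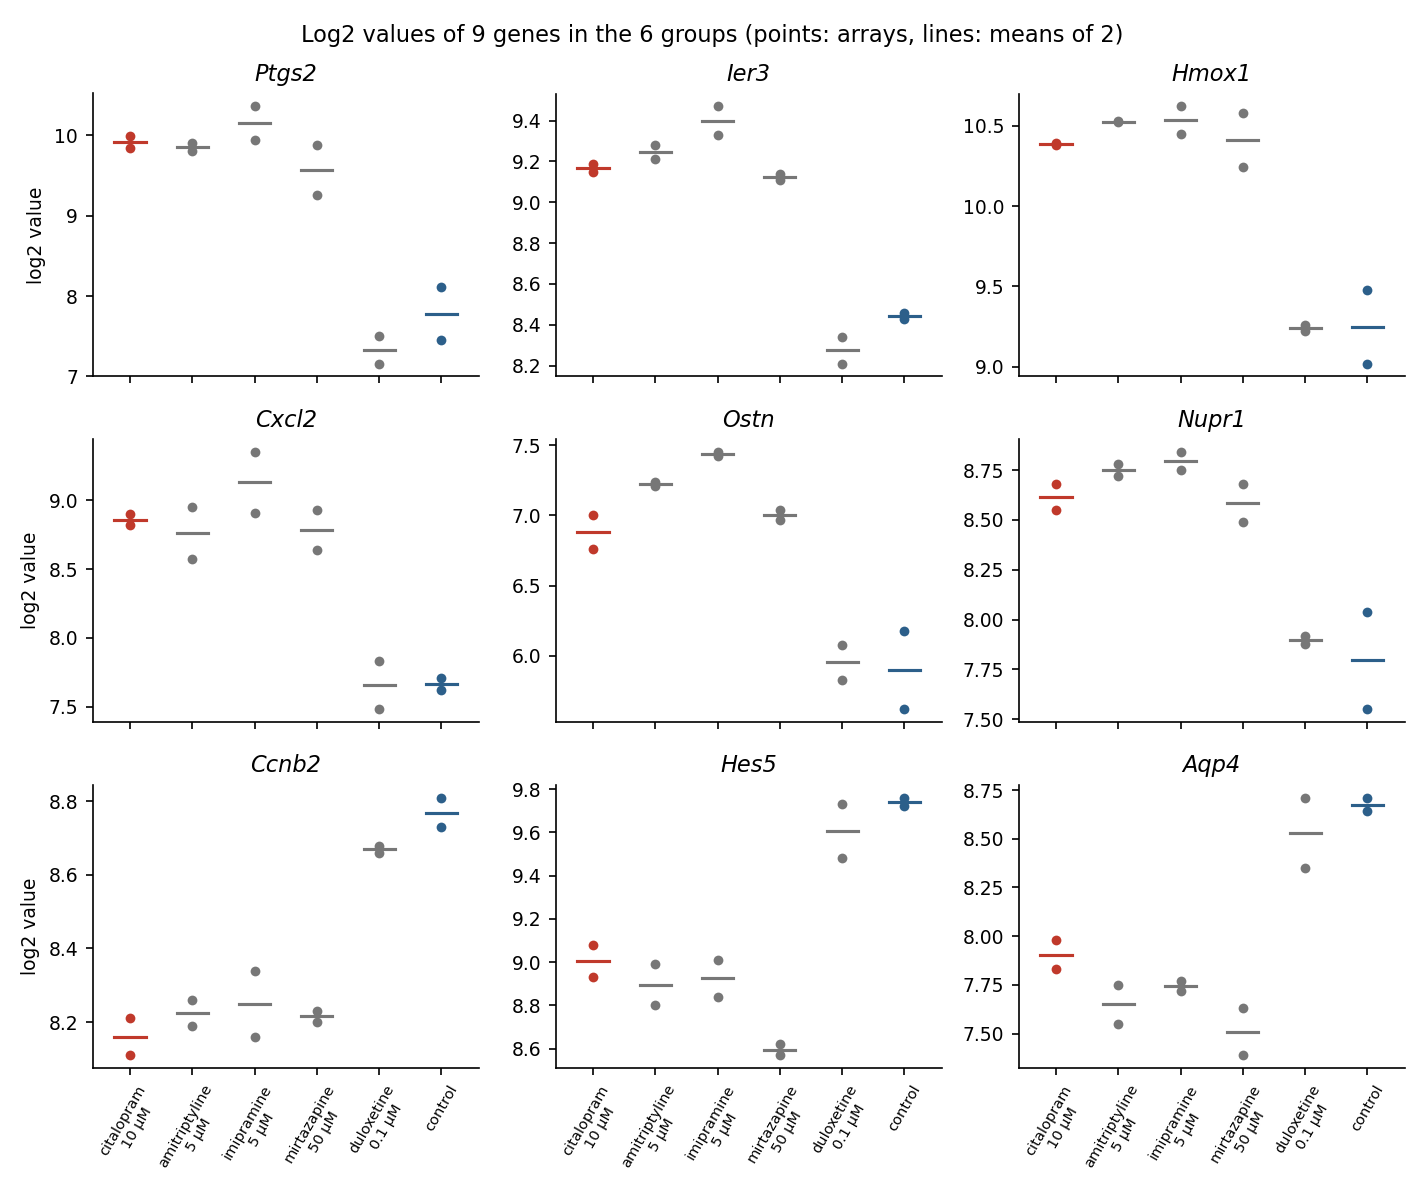
Log2 values of 9 genes in the 6 groups, with a point per array and a line at the mean of 2 arrays (the vertical axis differs between panels and does not start at 0). In the panels of Ptgs2, Ier3, Hmox1, Cxcl2, Ostn and Nupr1 the citalopram arrays (red, left) lie above those of duloxetine and control (blue, right), and in those of Ccnb2, Hes5 and Aqp4 below them.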

How the data were processed

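Biotin-labelled whole-transcript target made from total RNA was hybridised to 12 arrays. The authors deposited log2 values, which they made with RMA in Affymetrix Expression Console per the submitters' processing notes, with no version or genome build stated there. RMA values carry no counts, so the number of arrays limits the precision. Groups and replicate numbers came from titles, doses and times from the labels' protocols. GEO's platform annotation gave 1 gene symbol to 23521 probe sets, several to 1814 and none to 16010. By gene number 99.2% of the first matched RefSeq (GRCm38.p6), which left every symbol as it was. Where a gene had several probe sets (1082 genes), the brightest stood for it.

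A linear model over the 12 arrays was fitted with limma 3.58.1 under R 4.3.3 (lmFit, eBayes; 6 residual and 3.86 prior degrees of freedom). P-values are two-sided and adjusted by Benjamini-Hochberg over 17469 genes. The members and the 39 gene lists were chosen with earlier results of these data known; 8 list symbols were updated through a synonym. Lists are described by counts and medians. Named genes are the 16 higher and 16 lower of lowest p against control (5 and 5 for the other comparisons), up to 5 of lowest p in each list, and a fixed set of stress, serotonin, trophic and chromatin genes; predicted genes and small RNAs were passed over. Genes given as a range end, a list's exception or an example of a mechanism (Ndrg1, Nars, Cebpg, Bub1, Cit, Atp5g1 and those said so in the text) were named after their values were seen. Alternatives were other filters and probe set rules, a trended and robust prior, weights per group of arrays, quantile normalization applied again, a replicate block, fewer groups and each array left out. Plots come from matplotlib 3.10.9 under Python 3.11.15.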

Additional observations from a re-analysis of the deposited data

Results flagged for a closer look

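Ptgs2 and Ier3 differed between citalopram and duloxetine, compared directly and not through the control means. Values with citalopram exceeded those with duloxetine by 2.58 log2 units for Ptgs2 and by 0.90 for Ier3 in limma (adjusted p = 0.0141 for both). Both citalopram arrays were above both duloxetine arrays. The doses, 10 µM and 0.1 µM, differ, so drug and dose cannot be told apart.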

How the results depend on the processing

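For citalopram against control the count of 0 became 3 with a trended and robust prior, 76 (34 higher, 42 lower) with array weights, which gave the citalopram arrays 2.44 and the duloxetine arrays 0.323, and 0 to 10 with an array left out. It stayed at 0 with the filter at the 50th percentile or dropped, with all probe sets, with probe sets averaged, a second quantile normalization, only the compared arrays and without both arrays that stand apart. Against duloxetine the count of 2 became 4 with the 50th percentile filter, 7 with the trended and robust prior, 0 with array weights, 0 without both arrays that stand apart, 0 with only the compared arrays, and 0 to 442 with an array left out. Against the tricyclics it was 0 in all 22 alternatives. With the replicate block the counts were 0, 2 and 0, and the lowest adjusted p against control was 0.175; deviations of same-numbered arrays correlated at −0.09 for citalopram and control, −0.25 for citalopram and duloxetine, 0.2 and 0.18 for citalopram with amitriptyline and imipramine, and 0.71 for duloxetine and mirtazapine, so the numbers do not pair the groups compared with control or duloxetine, and the labels name nothing they share. Gfra1, at −0.38, was 0.02 with probe sets averaged, where its dimmer probe set differed by 0.42. Of 141 named genes whose interval left out 0, this was the 1 that changed sign. Of 39 list medians 13 changed sign in some alternative; that of the integrated stress response ranged from 0.195 to 0.305, that of mitosis from −0.42 to −0.372, and that of astrocyte markers from −0.187 to −0.146. Leaving an array out gives its group 1 array, whose spread is then taken from the rest. No detection calls were used, so how far each probe set lies above background is unknown.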
